A study of Mus musculus with 17 samples.

Results

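Of the 16 chromatin immunoprecipitation (ChIP-seq) peak lists analysed here, 4 map RUNX1 in a clone of 416B cells, a mouse myeloid progenitor line, that can be switched to make the fusion protein Cbfb-Myh11 (CM). These are the 2 replicates of CM cells given doxycycline at 1 µg/ml for 24 hours (CM +Dox) and the 2 replicates of the same cells without it (CM -Dox). The comparison used peaks with a deposited score of 9 or more, merged where they overlapped by at least 1 bp, which gave 18633 RUNX1 sites over the 4 lists. A site called in both CM -Dox libraries and in neither CM +Dox library is called lost, a site called in both CM +Dox libraries and in neither CM -Dox library is called gained, and a site called in all 4 is called kept. There were 4409 lost, 411 gained and 5860 kept sites, and the other 7953 sites were called in some other combination of libraries.

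Both CM groups carried the type A CM cDNA, joined through an F2A element to mCherry and driven by a tetracycline responsive element, and a second plasmid with the tetracycline silencer tTS, the transactivator rtTA and blasticidin resistance under an Ef1alpha promoter. The control cells of the series (Control +Dox and Control -Dox, 2 RUNX1 libraries each) carried the same 2 kinds of plasmid without the CM sequence. Lines were grown from single sorted mCherry-negative cells and chosen for their response to doxycycline, so each construct is represented by selected clones, and differences between clones cannot be told apart from differences between constructs. No label says whether replicates were separate cultures, so p-values below reflect library-to-library spread alone, which could be technical.

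RUNX1 is a DNA-binding factor of blood cell development that recognises the core sequence TGTGGT and binds it more strongly as a partner of CBFB, which itself does not touch DNA. In the leukaemia that carries an inversion of chromosome 16, CBFB is fused to the coiled-coil tail of the smooth muscle myosin MYH11, and the fusion still holds RUNX1. A ChIP-seq peak is a stretch of genome where immunoprecipitated fragments pile up above background, and a missing peak is a stretch that did not pass the caller's threshold, which is not the same as absence of the protein.

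Examples of the 3 kinds of site at gene starts are shown first; sequence away from gene starts was not used here. Each line gives 120 bases of RefSeq sequence at or just upstream of a gene start on assembly GRCm38.p6 (the mm10 build), read 5′ to 3′ on the gene's strand, with the RUNX core TGTGGT, or ACCACA where it lies on the other strand, in capitals. They are the highest-ranked start sites of each kind that hold the core among the start windows used, so its presence was a condition of being shown. Cpa3, which encodes a mast cell carboxypeptidase, St7, Gpr141, an orphan receptor gene, and Mad1l1, which encodes a mitotic checkpoint protein, had lost sites. Cd300c, an immunoglobulin-like receptor gene, Pfkp, which encodes a phosphofructokinase, and Spata6 had gained sites. AI467606, Wdr5, which encodes a subunit of histone methyltransferase complexes, and Gxylt1, a xylosyltransferase gene, had kept sites.
Cpa3, lost (chr3:20242192-20242311, minus strand): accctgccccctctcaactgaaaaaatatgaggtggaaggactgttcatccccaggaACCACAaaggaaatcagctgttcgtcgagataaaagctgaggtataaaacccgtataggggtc
St7, lost (chr6:17748920-17749039, plus strand): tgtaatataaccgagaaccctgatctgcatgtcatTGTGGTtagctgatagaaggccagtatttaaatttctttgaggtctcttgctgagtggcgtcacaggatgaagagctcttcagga
Gpr141, lost (chr13:19824258-19824377, minus strand): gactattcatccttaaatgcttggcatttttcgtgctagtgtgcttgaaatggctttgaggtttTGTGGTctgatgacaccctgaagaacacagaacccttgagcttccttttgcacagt
Mad1l1, lost (chr5:140174998-140175117, minus strand): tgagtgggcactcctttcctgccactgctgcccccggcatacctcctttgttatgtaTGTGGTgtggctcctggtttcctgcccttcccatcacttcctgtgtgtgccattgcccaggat
Cd300c, gained (chr11:114960565-114960684, minus strand): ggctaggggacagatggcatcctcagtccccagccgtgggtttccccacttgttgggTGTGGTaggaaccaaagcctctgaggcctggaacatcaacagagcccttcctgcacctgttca
Pfkp, gained (chr13:6648872-6648991, minus strand): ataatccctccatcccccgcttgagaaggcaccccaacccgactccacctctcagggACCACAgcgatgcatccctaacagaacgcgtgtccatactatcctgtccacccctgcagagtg
Spata6, gained (chr4:111719866-111719985, plus strand): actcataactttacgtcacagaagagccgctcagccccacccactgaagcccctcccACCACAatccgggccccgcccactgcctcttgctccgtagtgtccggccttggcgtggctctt
AI467606, kept (chr7:127091193-127091312, plus strand): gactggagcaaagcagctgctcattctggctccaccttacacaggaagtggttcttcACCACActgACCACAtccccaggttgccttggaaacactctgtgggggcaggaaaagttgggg
Wdr5, kept (chr2:27515020-27515139, plus strand): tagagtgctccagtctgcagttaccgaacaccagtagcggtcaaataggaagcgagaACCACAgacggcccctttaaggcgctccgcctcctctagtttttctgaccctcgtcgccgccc
Gxylt1, kept (chr15:93275310-93275429, minus strand): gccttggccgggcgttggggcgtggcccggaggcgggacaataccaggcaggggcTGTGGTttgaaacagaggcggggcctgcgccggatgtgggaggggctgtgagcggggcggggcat

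The first question was how much of the RUNX1 peak set changed with induction. The CM +Dox lists held 7939 and 9710 peaks at a score of 9 or more, against 13399 and 16163 in the CM -Dox lists. Both induced lists were shorter than both uninduced lists, by a ratio of means of 0.597 (8824.5 ± 1252 against 14781 ± 1954 peaks; SD, n = 2 each). The two-sided exact permutation test gave p = 0.333, the smallest value that 2 against 2 libraries allow. The score is the authors' −log10 p-value for each peak. The list of CM +Dox replicate 1 was deposited at a looser threshold (p of 1e-07, with 201 peaks under the common score of 9) than the other 3 lists (1e-09). Read depths are not given, so list length is not read as an amount of binding.

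In the control cells the lists held 13660 and 12347 peaks with Control +Dox and 14010 and 13550 with Control -Dox, groups that overlap. On the log2 scale the peak number differed by -0.75 in the fusion clone and by -0.09 in the control clone. The difference between these changes, -0.66, had a two-sided exact permutation p of 0.278 over 36 splits, whose smallest value is 0.0556, so the test could not pass 0.05. A caution applies to Control -Dox replicate 1, since its peaks are named with a +Dox tag. The label was followed here.

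Of the 12340 sites called in both CM -Dox libraries, 4409 were lost, which is 35.7% of them and 23.7% of all merged sites. CM +Dox replicate 1 called 50.7% of the 12340 sites and replicate 2 called 61.1%. A further 2071 sites (16.8%) were called in 1 CM +Dox library, in 1678 cases only in replicate 2. Of the 6790 sites called in both CM +Dox libraries, 411 were gained, which is 6.05% of them and 2.21% of all merged sites. The same rule found 359 lost sites in the control cells, 3.17% of the 11323 called in both Control -Dox libraries, and 138 gained sites, 1.34% of the 10287 called in both Control +Dox libraries. A peak under the score of 9 lay on 28 of the lost sites in an induced library, and 135 lost sites had an induced peak within 500 bp. Of the gained sites, 19 had an uninduced peak within 500 bp. With 1 library left out, fewer libraries must hold or lack a site and the counts are larger. Lost sites then numbered 7245 without CM -Dox replicate 1, and gained sites 1084, 920 and 788 without CM +Dox replicate 1, CM +Dox replicate 2 and CM -Dox replicate 2.

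The number of gained sites depended strongly on list length. With every list shortened to its 7939 best peaks, 1971 sites were lost (29.5% of those called in both CM -Dox lists) and 1518 were gained (25% of those called in both CM +Dox lists). Of those 1518, 1268 had a CM -Dox peak that fell below the shortened list's end, so most of them are sites whose rank was higher with CM +Dox and not sites without an uninduced peak. At gene ends lay 7.91% of these lost sites, 61% of the gained sites and 32.9% of the kept sites. In the control cells the same shortening gave 127 lost and 135 gained sites.

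**Figure D1:**
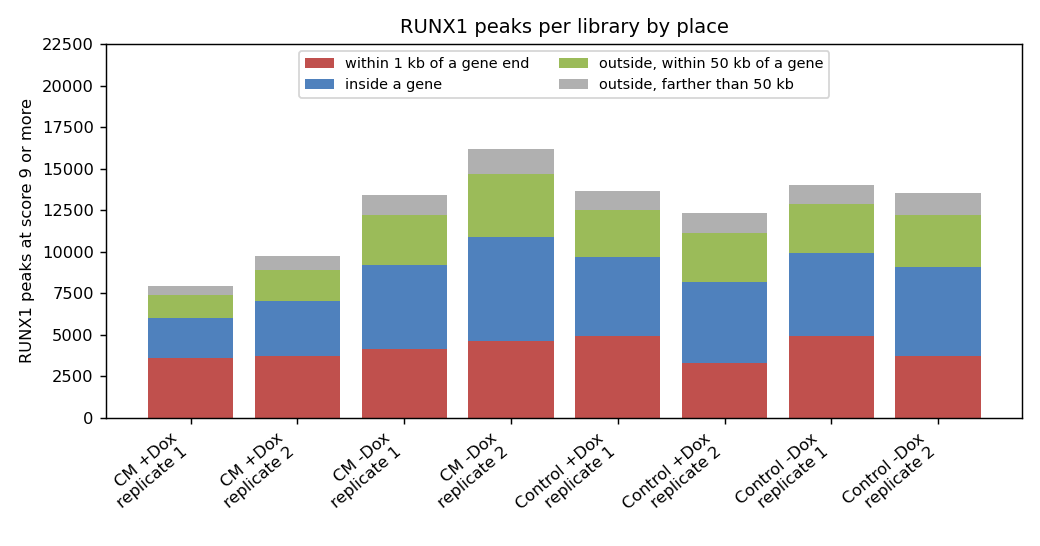
RUNX1 peaks at a score of 9 or more in each library (vertical axis, number of peaks), stacked by place relative to protein-coding genes, with 1 bar for each of the 4 CM and 4 control libraries. Both CM +Dox bars, at 7939 and 9710 peaks, are shorter than every other bar, and most of the missing height is in peaks away from gene ends.

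Sites were placed by the RefSeq gene table as within 1 kb of either end of a protein-coding gene, inside a gene farther from its ends, outside but within 50 kb of a gene, or farther away. The table used has no exons or untranslated regions, so these are not told apart. Of CM +Dox peaks, 45.5% and 38.6% lay within 1 kb of a gene end, against 30.9% and 28.6% of CM -Dox peaks. The groups did not overlap, and the means differed by 12.3 percentage points (42.0 ± 4.89% against 29.7 ± 1.66%; SD, n = 2 each; two-sided exact permutation p = 0.333, the smallest possible). The share inside genes was lower with induction, at 30.2% and 33.7% with CM +Dox and 37.6% and 38.9% with CM -Dox. In the control cells the gene-end share was 35.8% and 26.7% with doxycycline and 35.3% and 27.5% without, so there it separated the replicate numbers and not the treatments. Both control replicate 1 lists were deposited at 1e-09 and both replicate 2 lists at 1e-07, so replicate number and threshold cannot be told apart there.

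Lost sites were mostly away from gene ends. Within 1 kb of a gene end, 679 of 3777 uninduced sites were lost (18.0%, Wilson 95% interval 16.8 to 19.2). Inside genes 2004 of 4648 were lost (43.1%), within 50 kb outside genes 1243 of 2805 (44.3%), and farther away 483 of 1110 (43.5%). The last 3 shares differ little from each other, and together they come to 43.6%, more than 2 times the gene-end share. Without CM +Dox replicate 2 the shares were 27.9% near gene ends and 58.8% away from them. By class, 15.4% of lost sites were at a gene end, against 51.1% of gained sites and 43.5% of kept sites. These intervals cover counting error only, and sites of 1 library are not replicates.

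**Figure D2:**
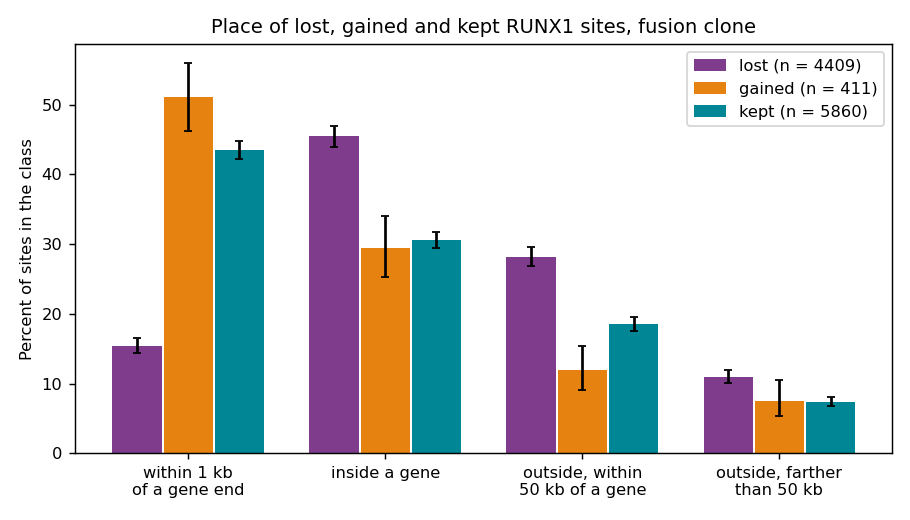
Place of the 4409 lost, 411 gained and 5860 kept RUNX1 sites of the fusion clone, as the percent of each class (vertical axis) in 4 places, with Wilson 95% intervals that cover counting error only. Lost sites have the lowest share at gene ends, 15.4%, and gained sites the highest, 51.1%.

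Lost sites also had lower and narrower peaks before induction. A percentile rank of the score within its own list, with 100 the highest, was used to set libraries side by side. The median rank of lost sites was 42.4 and 51.8 in the 2 CM -Dox libraries, against 67.3 and 71.1 for kept sites in the same libraries. Their median peak width was 272 and 297 bp, against 368 and 392 bp for kept sites. Gained sites were low too, with median ranks of 32.4 and 25.6 in CM +Dox and median widths of 274 and 270 bp. Median width over a whole list did not separate the groups, at 317 and 314 bp with CM +Dox and 309 and 316 bp with CM -Dox. With lists of equal length the groups did not overlap and the difference was -34.5 bp (exact permutation p = 0.333). By the width of the merged site, those at least 1 kb wide made up 0.159% of lost sites (7 of 4409), 3.65% of gained sites (15 of 411) and 3.58% of kept sites (210 of 5860). A kept site merges peaks of 4 lists and a lost or gained site those of 2, so merged widths are not measured alike.

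The lost share differed by place among sites of like rank. When the 12340 uninduced sites were cut into 5 equal groups by their mean CM -Dox rank, the share lost was 46.3%, 46.8%, 40.1%, 29.9% and 15.6% from the lowest group to the highest. At gene ends it was 29.2% in the lowest group and 5.90% in the highest. Inside genes it was 57.1%, 61.0%, 53.6%, 35.9% and 17.3%, and outside genes 67.3%, 59.1%, 52.9%, 39.9% and 17%. In each group the gene-end share was the lowest of the 3 places. By 5 equal groups of mean CM -Dox peak width the lost share ran from 64.7% in the narrowest to 10.7% in the widest. Rank and width are measures of the same libraries that chose the sites, so these shares are a description.

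**Figure D3:**
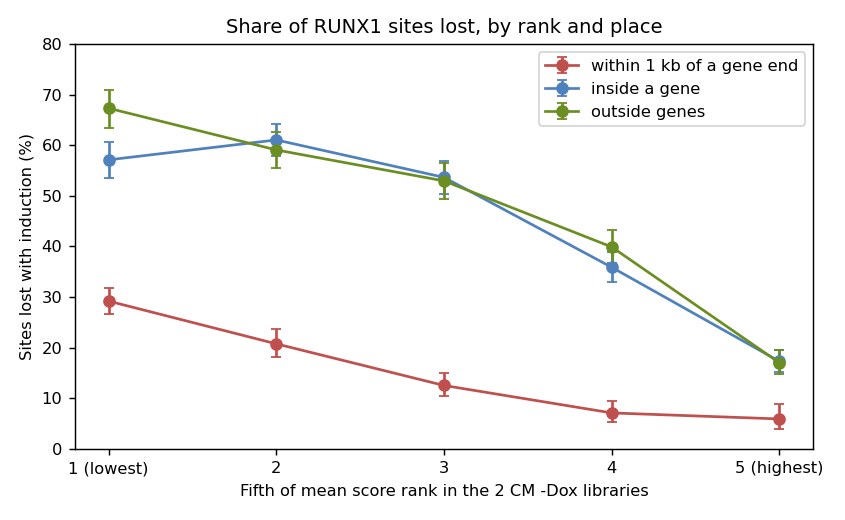
Percent of uninduced RUNX1 sites lost with induction (vertical axis) in 5 equal groups of mean score rank in the 2 CM -Dox libraries (horizontal axis, lowest to highest), by place, with Wilson 95% intervals for counting error. The line of sites at gene ends lies below both others in all 5 groups, from 29.2% down to 5.90%.

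Kept sites were compared by rank. Of the 5860 kept sites, 1834 (31.3%) ranked higher in both CM +Dox lists than in both CM -Dox lists, and 2075 (35.4%) ranked lower. At gene ends 48.9% ranked higher and 19.9% lower, inside genes 20.1% higher and 44.2% lower, within 50 kb outside genes 16.1% higher and 48.8% lower, and farther away 12% higher and 56.5% lower. Percentile ranks come from lists of unequal length. Ranked among the 5860 kept sites alone, 2093 (35.7%) were higher in both CM +Dox libraries and 1818 (31%) lower, so the overall balance turns with the ranking used. At gene ends 51.5% were then higher and 16.3% lower, and farther than 50 kb from genes 17.1% and 52.8%. The mean rank of gene-end sites minus that of sites in the other places was 3.50 and -10.9 in the CM +Dox libraries, against -19.2 and -23.8 in the CM -Dox libraries. The groups did not overlap, with a difference of 17.8 rank points (two-sided exact permutation p = 0.333, the smallest possible). In the control cells it was -2.50 and -21.7 with doxycycline and -3.38 and -20.0 without. A rank is relative within its list, so higher ranks at gene ends and lower ranks elsewhere are the same measurement.

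The strongest lost sites lay in and near genes of several kinds. The highest-ranked lost site inside a gene was in Mctp1, which encodes a calcium-binding membrane protein (chr13:76421069-76421471). No CM +Dox library called it, against ranks of 99.1 and 99.4 in CM -Dox. The others inside genes were in Pparg, which encodes a nuclear receptor of fat and macrophage biology (chr6:115434026-115434457, ranks 98.5 and 98.7 in CM -Dox), in Dpp4, a cell-surface peptidase gene (chr2:62390859-62391551), and in Klhl2 (chr8:64820962-64821459). Outside genes they lay 43.7 kb from Map4k3, a kinase gene (chr17:80772472-80772878, ranks 99.0 and 99.0), 1.21 kb from Slc11a1, a metal transporter gene of macrophages (chr1:74373371-74373803, ranks 99.4 and 98.1), 498 kb from Mettl15 (chr2:108593560-108593949) and 211 kb from Actbl2 (chr13:111043646-111044106). All 8 sites were called in all 4 control libraries.

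At gene ends the highest-ranked lost sites were near Map3k2, a kinase gene on chromosome 18, at Lyl1, which encodes a blood stem cell transcription factor (chr8:84703402-84703835, and 0.877 kb from an end of Nfix), at Cpa3 (chr3:20242058-20242425) and near 1110002E22Rik (chr3:138061345-138062007). No CM +Dox library called the Lyl1 site at the score of 9, against ranks of 95.7 and 94.1 in CM -Dox. Lyl1 also had a kept site at its end (chr8:84701225-84701855). At Cpa3 the site spans the printed start sequence, and it ranked 93.9 and 95.3 in CM -Dox. The Map3k2 site had a peak with a score of 8.4 in CM +Dox replicate 1, just under 9, against scores of 105.5 and 181.5 in CM -Dox.

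Gained sites were weaker. The highest at gene ends were near Chid1 (chr7:141540651-141540919), at Taf11, which encodes a subunit of the general transcription factor TFIID (chr17:27908857-27909390), and at Fam221a (chr6:49367499-49367977). Their ranks in CM +Dox were 72.2 and 64.2, 78.7 and 50.9, and 70.8 and 55.7, with no CM -Dox call. Inside genes they were in Ubash3b, which encodes a phosphatase of receptor signalling (chr9:41152859-41153219, ranks 70.7 and 91.7), Myh11 (chr16:14204515-14205679, ranks 84.3 and 76.6) and Pnkd (chr1:74331175-74331548, ranks 76.4 and 79.3). The Ubash3b and Myh11 sites were called in no control library, while the Pnkd site was called in all 4. Myh11 sequence is part of the construct, and whether its peak comes from the inserted cDNA was not tested. Outside genes the highest were 63.4 kb from Pax1, 6.75 kb from Pla2g2d and 98.6 kb from Pabpc6, and each was called in 3 or 4 control libraries.

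The 2 highest kept sites, near Reep3 (chr10:66864159-66864966) and in Itsn1 (chr16:91789579-91790243), ranked at least 99.87 in every fusion-clone RUNX1 library. The largest rank differences upward with CM +Dox were near Klf10, a growth-inhibitory transcription factor gene (chr15:38302246-38302595), at Ccdc82 (chr9:13246708-13247138) and near Hpn (chr7:31115600-31116099). The Klf10 site ranked 79.5 and 72.5 in CM +Dox, against 6.4 and 3.3 in CM -Dox, and among kept sites alone 72.4 and 56.1 in CM +Dox, against 3.24 and 1.21 in CM -Dox. The largest downward were near Nrgn (chr9:37554154-37554616), at Dock8, an immune cell guanine exchange factor gene (chr19:24998563-24999626), and near the olfactory receptor gene Olfr1226 (chr2:89196329-89196965). The Nrgn site ranked 5.4 and 10.6 in CM +Dox, against 96.6 and 97.0 in CM -Dox, and among kept sites alone 2.30 and 3.69 in CM +Dox, against 92.9 and 92.8 in CM -Dox.

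The control RUNX1 libraries took no part in choosing the classes and show where these sites stand in cells without CM. Their lists were used here as deposited, without the score of 9. Replicate 1 lists had a threshold of 1e-09. Replicate 2 lists had 1e-07, with 256 peaks under 9 in Control +Dox and 270 in Control -Dox. Of lost sites, 67.5% and 71.3% were called in Control +Dox and 73.4% and 74.5% in Control -Dox, and 2422 of them (54.9%) were called in all 4 control libraries. Only 659 lost sites (14.9%) were called in none. Of gained sites, 39.7% and 18.0% were called in Control +Dox and 36.5% and 21.9% in Control -Dox, with 36 (8.76%) called in all 4 and 172 (41.8%) in none. Kept sites were called at 93.9% and 86.9% in Control +Dox and 95.9% and 90.3% in Control -Dox. Control +Dox minus Control -Dox came to -4.54, -0.36 and -2.69 percentage points at lost, gained and kept sites (two-sided exact permutation p = 0.333, 1 and 0.667, n = 2 each; all 1 after Benjamini-Hochberg adjustment over the 3).

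CHD7, a chromodomain protein that moves nucleosomes, was mapped in the same cells, and its libraries also took no part in choosing the classes. At lost RUNX1 sites a CHD7 peak was called at 22.4% and 31.4% of sites with CM +Dox, against 35.6% and 53.9% with CM -Dox. At gained sites the shares were 35.0% and 44.8% with CM +Dox, against 19.7% and 30.7% with CM -Dox. At kept sites they were 50.4% and 65.2% with CM +Dox, against 53.7% and 70.6% with CM -Dox. The groups did not overlap at lost and gained sites and overlapped at kept sites. The differences were -17.9, 14.7 and -4.36 percentage points (two-sided exact permutation p = 0.333, 0.333 and 0.667, n = 2 each; 0.5, 0.5 and 0.667 after Benjamini-Hochberg adjustment over the 3). Within each replicate number the differences at lost sites were -13.2 and -22.6 points, and at gained sites 15.3 and 14.1 points. Leaving out 1 library gave differences of -27.1 points (without CM -Dox CHD7 replicate 1) to -8.74 points (without CM -Dox CHD7 replicate 2) at lost sites. At gained sites they ran from 9.02 points (without CM +Dox RUNX1 replicate 2) to 20.2 points (without CM -Dox CHD7 replicate 2). At gained sites the groups overlapped with RUNX1 lists of equal length (7.05 points) and at a RUNX1 score of 15 (10.2 points), each with an exact permutation p of 0.667. At lost sites the difference was then -25.1 and -17.7 points, with no overlap in either case.

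In the control cells CHD7 calls at lost, gained and kept sites differed by -1.07, -1.58 and -0.89 percentage points with doxycycline, each with overlapping groups and an exact permutation p of 1. The difference between the clones was not tested. The CHD7 lists held 33462 and 31688 peaks in CM +Dox and 17554 and 37698 in CM -Dox, all deposited at a p-value threshold of 0.01, and these lengths overlap between the groups. By place, the difference at lost sites was -5.96 points at gene ends and -20.1 points elsewhere, against -5.45 and -0.27 points in the control cells. The fusion-clone groups overlapped at gene ends (exact permutation p = 0.667) and did not overlap elsewhere. At gained sites it was 9.76 points at gene ends and 19.9 points elsewhere, against -0.48 and -2.74 points in the control cells.

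Uninduced sites were also divided by the CHD7 calls of uninduced cells. The share lost was 25.8% of sites with a CHD7 peak in both CM -Dox CHD7 libraries, 38.1% with a peak in 1 and 47.6% with none. Away from gene ends these shares were 29.0%, 46.8% and 63.0%, and at gene ends 17.3%, 18.2% and 18.6%. At gene ends the 3 shares lie close together. The RUNX1 rank moved with it, since the median CM -Dox rank away from gene ends was 70.2 with CHD7 in both libraries, 60.3 in 1 and 53.3 in none, and the part of rank in the gradient was not tested.

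**Figure D4:**
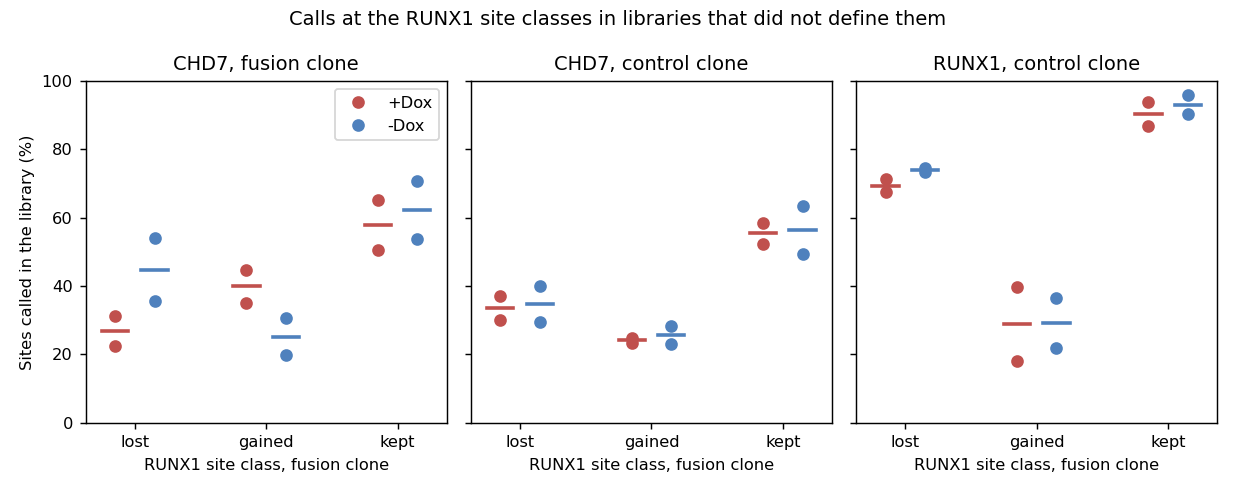
Percent of lost, gained and kept RUNX1 sites of the fusion clone (horizontal axis) called in each library that did not define them (vertical axis), for CHD7 in the fusion clone, CHD7 in the control clone and RUNX1 in the control clone, where each point is a library and each line a mean of 2. CHD7 calls in the fusion clone lie lower with +Dox at lost sites, at 22.4% and 31.4% against 35.6% and 53.9%, and higher with +Dox at gained sites.

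The sequence of gene starts was read from RefSeq windows of 300 bases, 250 before and 50 after the start, for 17492 genes (81.8% of protein-coding genes on the chromosomes covered). Windows on chromosome 18 were not used here, so the start sequences shown were ranked over the other chromosomes. Lost sites overlapped 490 windows, gained sites 168 and kept sites 2568. The core TGTGGT, on either strand, was in 22.0% of windows with a lost site (108 of 490; Wilson 95% interval 18.6 to 25.9), 11.3% with a gained site (19 of 168), 12.1% with a kept site (311 of 2568) and 15% of all 21263 windows. The interval for lost sites lies above the share over all windows, but it counts windows of the same gene as separate, which makes it too narrow where they share sequence. The shorter word TGTGG, which lies inside the core, was in 57.3%, 45.8% and 49.8% of these windows and in 53.5% of all windows. Its Wilson 95% interval for lost sites, 52.9 to 61.7, contains the share over all windows. Words were counted anywhere in a window, whether or not they lay inside the RUNX1 site.

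Base composition moved with these counts. Median GC content was 59% in windows with a lost site, 65.5% with a gained site, 64.3% with a kept site and 56.3% over all windows, and the median number of CpG dinucleotides was 21, 24, 25 and 13. The ETS word CCGGAAGT was in 14.3%, 8.93% and 11.1% of windows with a lost, gained and kept site, against 5.15% of all windows. The GATA word AGATAA was in 7.76%, 6.55% and 4.36%, against 9.65% of all windows. The part of base composition in the counts of the core was not tested, and a match is a run of letters, not a bound site.

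A gene was taken as bound by a condition if its body, widened by 5 kb at each side, held a site that both replicates called. Of 21887 protein-coding genes, 5335 met this with CM +Dox and 7221 with CM -Dox. Binding was found only with CM +Dox for 469 genes (8.79% of those bound there) and only with CM -Dox for 2355 (32.6% of those bound there). A gene bound in only 1 condition by this rule can still have a call in 1 library of the other. At least 1 lost site was assigned to 2793 genes, of which 1066 (38.2%) also had a kept site. At least 3 lost sites were assigned to 121 genes, 432 genes had a gained site and 106 had both.

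The 8 genes named for their number of lost sites also had kept ones, whereas Rab27b, with 5 lost sites like Fyb and Dock10, had no kept site. Pde4d, a cAMP phosphodiesterase gene (chr13:108654177-109955969), had 9 lost and 7 kept sites, and 7 and 7 of its sites were called in CM +Dox, against 16 and 18 in CM -Dox. Sgms1, a sphingomyelin synthase gene, had 7 lost, 2 gained and 7 kept sites, with 9 and 14 sites called in CM +Dox and 16 and 23 in CM -Dox. Aff1, which encodes a subunit of the super elongation complex, had 7 lost and 2 kept sites. Spns2, a sphingosine-1-phosphate transporter gene, had 6 lost sites and 1 kept site, with 1 and 1 called in CM +Dox and 7 and 7 in CM -Dox. Arhgap6 and Snx29 had 6 lost sites each, and Fyb, which encodes an adaptor of immune receptors, and Dock10 had 5 each. Long genes hold more sites, so these counts are not per length. Of gained sites, the most were 3 each at Itga6, which encodes an integrin chain, and at Cdk17 and Elk3, whose neighbouring ends share the same 3 sites (chr10:93246335-93250103).

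The gene of RUNX1 itself carried a mixture. Within Runx1 (chr16:92601466-92826074, ends extended by 5 kb) there were 3 lost and 5 kept sites, with 6 and 7 sites called in CM +Dox, 9 and 11 in CM -Dox and 9 or 10 in each control library. A lost site (chr16:92653877-92654253) ranked 96.3 and 97.0 in CM -Dox, and another (chr16:92822061-92822525) ranked 95.3 and 93.5. A kept site at chr16:92620704-92621604 ranked 3.3 and 50.3 in CM +Dox, against 98.1 and 98.3 in CM -Dox. A pair of neighbouring kept sites (chr16:92800737-92801251 and chr16:92801543-92801974) ranked at least 97.6 in all 4 libraries. At Chd7 none of 4 uninduced sites was called in both CM +Dox libraries, with 0 and 2 called in CM +Dox, against 4 and 4 in CM -Dox.

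Cbfb and Myh11, whose sequences make up the construct, behaved apart. Peaks lay in Cbfb at 4 and 4 sites in CM +Dox and 4 and 2 sites in CM -Dox, and in Myh11 at 3 and 3 sites in CM +Dox and 1 and 0 in CM -Dox, with no site at either gene in any control library. Of these, 1 gained site was in Cbfb and 2 were in Myh11. All 5 Cbfb sites and all 3 Myh11 sites were also called in all 4 CHD7 libraries of the fusion clone. Whether these peaks come from the inserted cDNA or from the genes was not tested.

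Gene lists of blood lineages and processes were set beside the 35.7% of all uninduced sites that were lost, as counts without a test. Mast cell and basophil genes stood highest, with 7 of 9 uninduced sites lost (77.8%, Wilson 95% interval 45.3 to 93.7) over 12 listed genes found in the table. The sites were at Kit, the stem cell factor receptor gene, Cpa3, Ms4a2, which encodes a chain of the IgE receptor, Srgn, Il1rl1, the IL-33 receptor gene, and Mcpt8, a basophil protease gene. At Srgn, which encodes a granule proteoglycan, 0 and 3 sites were called in CM +Dox, against 2 and 3 in CM -Dox. Kit, Cpa3, Srgn and Mcpt8 had no site called in both CM +Dox libraries. They were 4 of the 6 genes of this list bound in CM -Dox (66.7%), beside 32.6% over all genes.

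Megakaryocyte and platelet genes had 14 of 24 uninduced sites lost (58.3%). Of the 14, 5 sites were in Rab27b, a granule transport gene, which had 0 and 0 sites called in CM +Dox and 5 and 7 in CM -Dox. Itgb3, a platelet integrin gene, had 3 lost and 2 kept sites, with 2 and 3 called in CM +Dox and 6 and 7 in CM -Dox. The glycoprotein genes Gp5 and Gp9 also had no site called in both CM +Dox libraries. With Rab27b they were 3 of the 10 genes of this list bound in CM -Dox (30%), beside 32.6% over all genes. The median number of lost sites per gene with an uninduced site was 1 in each of these 2 lists and also in the adhesion, cytokine signalling and chromatin remodeller lists, against 0 over all such genes.

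Stem and progenitor factors had 6 of 39 uninduced sites lost (15.4%) and cytosolic ribosomal protein genes 2 of 20 (10%), both under the share over all sites. Of these uninduced sites, 22 of 39 and 10 of 20 were kept, beside 47.5% over all uninduced sites. Of the ribosomal protein genes bound in CM -Dox, 6 of 16 (37.5%) were bound only there, beside 32.6% over all genes. Ribosomal protein gene sites were at gene ends in 95% of cases, while 33.3% of the stem and progenitor factor sites were. Of all uninduced sites at gene ends 18.0% were lost. That share lies within the Wilson 95% interval of the ribosomal protein gene share, 2.79 to 30.1. The median CM -Dox rank was 72.6 at stem and progenitor factor sites and 36.9 at ribosomal protein gene sites, against 56.0 over all uninduced sites. High-ranked sites were lost less often over all sites, and the part of rank and of place in these shares was not tested. Of the stem and progenitor factors, 10 of 20 had a site called in both CM +Dox libraries and 14 had one called in both CM -Dox libraries. Lmo4 was bound only with CM +Dox, and Tal1, Gata2, Fli1, Gfi1b and Mycn only with CM -Dox. These 5 of 14 genes (35.7%) stand beside 32.6% over all genes bound with CM -Dox. The Mycn site, at the end of this growth-promoting transcription factor gene (chr12:12942325-12942673), was called in neither CM +Dox library and ranked 47.0 and 61.3 in CM -Dox. For Tal1, Gata2, Fli1 and Gfi1b the uninduced sites were called in 1 CM +Dox library, so they are not lost sites by the rule. Likewise Lmo4 had no gained site, since its induced binding was also called in 1 CM -Dox library.

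The remaining lists lay nearer the overall share. Adhesion and migration genes had 6 of 13 uninduced sites lost (46.2%), with Itgb2, a leukocyte integrin gene, and Ccr2, a chemokine receptor gene, among those bound only in CM -Dox. Genes bound only there were 3 of the 8 of this list bound in CM -Dox (37.5%), beside 32.6% over all genes. Chromatin remodellers had 12 of 28 (42.9%), cytokine signalling genes 9 of 29 (31%), MAPK and immediate-early genes 5 of 18 (27.8%) and cell cycle genes 9 of 33 (27.3%). Myeloid differentiation genes had 3 of 13 (23.1%), in Cebpe, a granulocyte transcription factor gene, Itgam and Fcgr3. The RUNX family and its cofactors had 8 of 38 (21.1%), and erythroid genes 1 of 5, at Klf1. Myc, Cdk1, Cdkn1a and Mcm5 among cell cycle genes were bound only in CM -Dox, 4 of 17 (23.5%), beside 32.6% over all genes. The uninduced sites of Cdk1 and Cdkn1a were called in 1 CM +Dox library, so they are not lost sites by the rule. Lymphoid genes had 1 uninduced site, at Cd79a, and endothelial genes 1, at Pecam1, neither lost, and liver genes had none. Each of these lists also had 1 gained site, at Lck (lymphoid), Esam (endothelial) and F9 (liver).

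**Figure D5:**
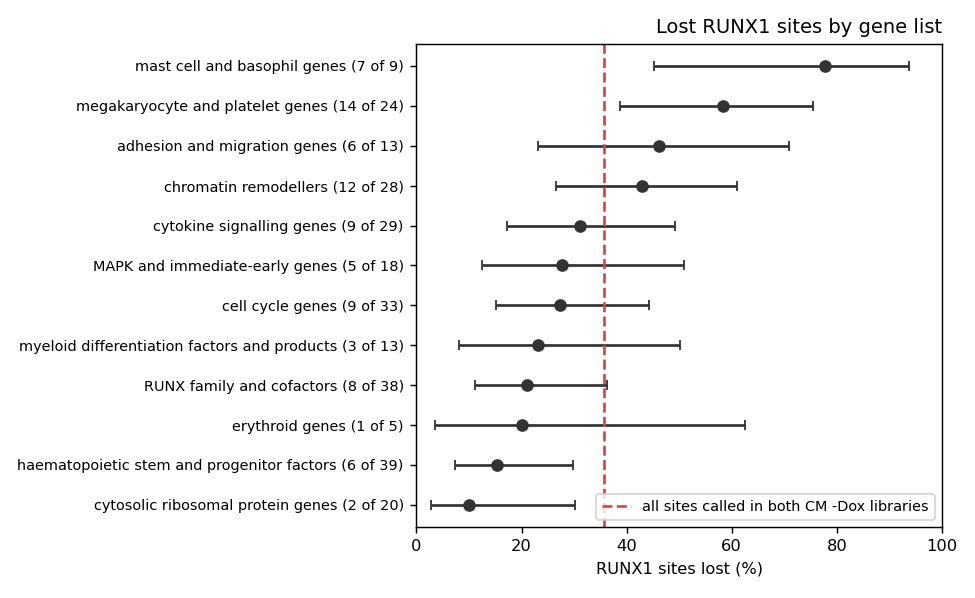
Percent of uninduced RUNX1 sites lost (horizontal axis) in each gene list with at least 5 such sites, with Wilson 95% intervals for counting error and the number of sites in brackets, beside the share over all uninduced sites (dashed line, 35.7%). Mast cell and basophil genes (7 of 9) lie highest and cytosolic ribosomal protein genes (2 of 20) lowest, and the intervals of short lists are wide.

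Sites at cell type markers were set against the labelled cell type, although a site shows RUNX1 on DNA and not expression. A marker had a site here only if both libraries of the condition called it. One without can still have a call in 1 library, as at Cebpa, Itgam and Gata2 in CM +Dox. Of 6 myeloid markers, Spi1 and Csf1r had a site in CM +Dox, and Spi1, Cebpa, Csf1r and Itgam in CM -Dox. Of 4 mast cell and progenitor markers, none had a site in CM +Dox, and Kit, Cpa3 and Gata2 had one in CM -Dox. Of 4 megakaryocyte markers, Itga2b and Pf4 had a site in CM +Dox, and Itga2b, Pf4 and Gp9 in CM -Dox. Of 4 erythroid markers, Klf1 had a site in CM +Dox, and Klf1 and Hbb-bt in CM -Dox. The 4 lymphoid, 3 endothelial and 3 liver markers had no site in either group. Other genes of these kinds did, namely Lck, Esam and F9 in CM +Dox and Cd79a and Pecam1 in CM -Dox.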

How the data were processed

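RUNX1 and CHD7 ChIP-seq peak lists were used as deposited, 1 list per library, so peaks were called per sample. Each deposited peak has a score that is the −log10 of its p-value, read from the p-value thresholds in the peak names, which the lowest scores lie just above. Bowtie2 2.0.6, MACS2 2.0.10 and the mm10 build are named, per the submitters' processing notes. The background library of the peak calls and any read filters were not given in the sources used here, and the depth of the libraries is unknown. Different thresholds between lists and unequal depth both change which sites are called, which is why a common score of 9 and an equal list length were used.

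Chromosomes 1 to 19, X and Y were kept. RUNX1 peaks of the 4 fusion-clone libraries at a score of 9 or more were merged, and a site was called in a library when a peak overlapped it by 1 bp. For the shares of lost, gained and kept sites called, control RUNX1 lists and CHD7 lists were used as deposited. Places and distances came from 21887 protein-coding genes of the RefSeq table (GRCm38.p6), which 239 of 240 listed genes matched. Library values were compared by two-sided exact permutation over the 6 choices of 2 of 4 libraries, and between clones over 36 splits. No p-value was given to sites, genes or lists. Intervals of shares are Wilson 95% intervals and cover counting error only. The members, the gene lists and the tests were chosen with earlier results of these data known.

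Sites were named by rank within place (4 lost and 3 gained in each of 3 places), by the 3 highest kept sites (1 of which is not reported here) and the 3 largest rank differences each way. Genes were named by number of lost (8) or gained (4) sites, by up to 2 in each of the 15 lists, and as Runx1, Chd7, Cbfb and Myh11. Other listed genes and the printed start sequences were chosen after their values were seen. Alternatives were a score of 15, equal list length, overlap of 50% of the shorter interval, a 5 kb gene-end window, leaving out each library, and a replicate block. The ranks among kept sites alone, the shares by rank, by CHD7 and place, the GATA, ETS and CpG counts and the equal-length place shares were added after the data were seen. The scripts used Python 3.11.15, numpy 2.4.6, scipy 1.17.1, pandas 2.3.3 and matplotlib 3.10.9, and were tested on simulated data. The IgG sample was not analysed here.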

Additional observations from a re-analysis of the deposited data

How the results depend on the processing

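For 19 results, 160 values were recomputed. Of the values under another setting, 7 moved and 1 reversed. Of the values without a library, 12 moved and 8 reversed. The other 68 and 64 values stayed the same. Same means the direction alone for a tested difference (no test here could reach 0.05), a factor of 1.5 for a count, and the 95% interval for a share. At a score of 15 the lost share was 21.0% near gene ends and 45.5% away from them. With every list cut to equal length the median width differed by -34.5 bp (CM +Dox minus CM -Dox, groups not overlapping), 1971 sites were lost, 1518 were gained, and the lost share was 10.2% near gene ends and 35.3% away. With a gene end taken as 5 kb the lost share near ends was 24.7%. In every one of these the lost share near gene ends stayed below that away from them. Requiring 50% overlap left the RUNX1 classes as they were, since each peak lies inside its merged site.

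Without each library in turn, lost sites numbered 4807 to 7245 and gained sites 562 to 1084, because fewer libraries then had to hold or lack a site. The lost share was 21.0% to 27.9% near gene ends and 46.1% to 58.8% away from them. The median width difference was -0.5 to 6.5 bp. CHD7 at kept sites differed by -12.8 to 4.10 points, at lost sites by -27.1 to -8.74 and at gained sites by 9.02 to 20.2. RUNX1 in control cells differed by -11.2 to 10.5 points at gained sites and by -6.23 to 0.85 at kept sites. The cause of the reversals was not tested.

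Replicate block: same-numbered CM +Dox and CM -Dox libraries deviated together with a correlation of 0.237 over 5860 kept sites, but 2 pairs do not show that the numbers pair the samples. The replicate block left each difference as it was (peak number -5956.5, gene-end share 12.3 points, CHD7 at lost sites -17.9 points). With 2 pairs the smallest p is 0.5. Unknown read depth limits every count of called sites.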

Other observations

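The nearest kept site was at a median distance of 55.5 kb from a lost site, and 16.3% of lost sites had one within 10 kb. The nearest other lost site was at a median of 72.5 kb, with 15.6% within 10 kb. Gained sites lay at a median of 54.9 kb from a kept site, with 20% within 10 kb. Kept sites lay at a median of 41.7 kb from another kept site, with 21.1% within 10 kb. Among the chromosomes, the lost share of uninduced sites lay between 29.6% on chromosome 19 and 43.1% on chromosome 13, where gene-end sites made up 33.8% and 20.3% of uninduced sites. Within a condition, 86.3% and 70.4% of CM +Dox peaks and 92.7% and 76.6% of CM -Dox peaks overlapped a peak of the other replicate.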
